A study of Mus musculus with 24 samples.

Results

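The 7 genes described here encode acute phase and neutrophil proteins: Saa3, Lcn2, S100a8, S100a9, Hp, Orm1 and Cp. They were followed in mouse lung RNA after bleomycin, a DNA-damaging drug used to produce lung fibrosis, or saline. All probe sets that the array annotation ties to these genes were taken, 9 of the 12422 probe sets on the array that are not controls. Lcn2 has 2 probe sets, Orm1 has 1 of its own and 1 that it shares with its near-identical neighbour Orm2, and the other 5 genes have 1 each. All 9 passed the filter on low values, which asked for an intensity above 225.7 on at least 2 arrays and left 8710 probe sets to test.

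There were 24 arrays in 12 groups of 2, marked a and b. Mice of the inbred strains C57BL/6J and BALB/c received either bleomycin at 1.5 U per kg or saline through the trachea, and their lungs were taken at 24 h, 72 h or 14 d. No genotype other than the strain, and no age, is given in the labels, and they do not say whether a and b came from separate mice, so every p-value measures only the spread between these arrays, which may be technical. The series asks, by its title, how these strains differ in their liability to lung fibrosis. Groups follow the titles. The descriptions of the BALB/c saline 72 h arrays name bleomycin, and those of the BALB/c saline 24 h arrays name bleomycin or saline.

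Acute phase proteins are plasma proteins whose output climbs during infection or injury, mostly in the liver under cytokines of the Il6 and Il1 families, through the transcription factors STAT3, C/EBP and NF-kappaB. In mice Saa3, a serum amyloid A protein, is made largely outside the liver, by macrophages and epithelial cells. S100a8 and S100a9 pair to form calprotectin, a metal-binding protein abundant in the cytosol of neutrophils, and Lcn2 is an iron-withholding protein of neutrophil granules and of injured epithelium. Hp binds free haemoglobin, Orm1 is a plasma carrier glycoprotein and Cp is a copper-carrying enzyme that oxidises iron.

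The sequences just before the start of Saa3 and Lcn2 are shown because these are the genes that rose at 72 h. They are the 250 bases before the RefSeq start on mouse build GRCm38.p6, written along the gene, Saa3 from chr7:46715677-46715926 and Lcn2 from chr2:32387740-32387989, both on the minus strand. Capitals mark matches to TTGCNNAA, the C/EBP motif, read on both strands.
Saa3: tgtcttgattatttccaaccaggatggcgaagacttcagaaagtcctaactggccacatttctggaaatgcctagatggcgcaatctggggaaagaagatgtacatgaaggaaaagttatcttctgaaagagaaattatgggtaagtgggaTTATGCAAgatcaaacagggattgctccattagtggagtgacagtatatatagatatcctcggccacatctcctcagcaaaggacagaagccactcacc
Lcn2: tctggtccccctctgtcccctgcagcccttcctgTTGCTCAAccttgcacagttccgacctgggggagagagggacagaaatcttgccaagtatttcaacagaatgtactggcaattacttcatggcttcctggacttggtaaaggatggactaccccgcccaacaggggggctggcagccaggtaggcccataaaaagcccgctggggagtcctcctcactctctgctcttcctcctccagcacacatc
The match lies 99 to 92 bases before the start in Saa3, on the opposite strand, and 216 to 209 bases before it in Lcn2. S100a9 also holds this motif, as does 1 of the 2 windows listed for Cp, and S100a8 does not. The motif is found in 9.57% of the 32536 windows of that length in the table. The STAT motif TTCNNNGAA, read on both strands and present in 7.04% of windows, was found in none of these 6 windows. Hp and Orm1 have no entry in the promoter table. These matches are letters in a window and do not show binding.

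Some arrays stood apart before any test. The array titles of C57BL/6J saline 24 h alone end in s1, and their brightest signals reached 43230 and 78641, against 6888 to 21462 on the other 22 arrays. H2-Ea, an MHC class II gene that BALB/c expresses and C57BL/6J lacks, read 2917 to 6068 on the other BALB/c arrays and 25.6 to 166 on the other C57BL/6J arrays. At 72 h after saline it ran against the labels, with 4821 and 3622 in the group called C57BL/6J and 89.5 and 48.3 in the group called BALB/c. The 72 h values are given as labelled, and those without these 4 arrays stand beside them or after the counts by comparison. Each strain's saline arrays of 24 h and 14 d then serve as its control, b arrays included. Lung epithelial genes ranged widely, Sftpc from 5.78 to 78641. Sftpc, Sftpb, Scgb1a1 and Ager were above the filter value on 21 to 23 arrays, and Sftpd on 2. Of the heart muscle genes, Myh6 (766 to 3242), Myl7, Actc1, Tnni3 and Nppa were above it on all 24 arrays, and Myl2 on 0.

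On 10 of the 12 saline arrays Saa3 lay far below every bleomycin array. The lowest bleomycin value was 4354, and those 10 saline arrays read 207 to 691. The exceptions were the b arrays of the saline 24 h groups, at 25728 in C57BL/6J, which is the highest Saa3 value of the series, and 6917 in BALB/c. The plot of intensities on each array shows this split for Saa3, Lcn2 and Orm1.

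**Figure D1:**
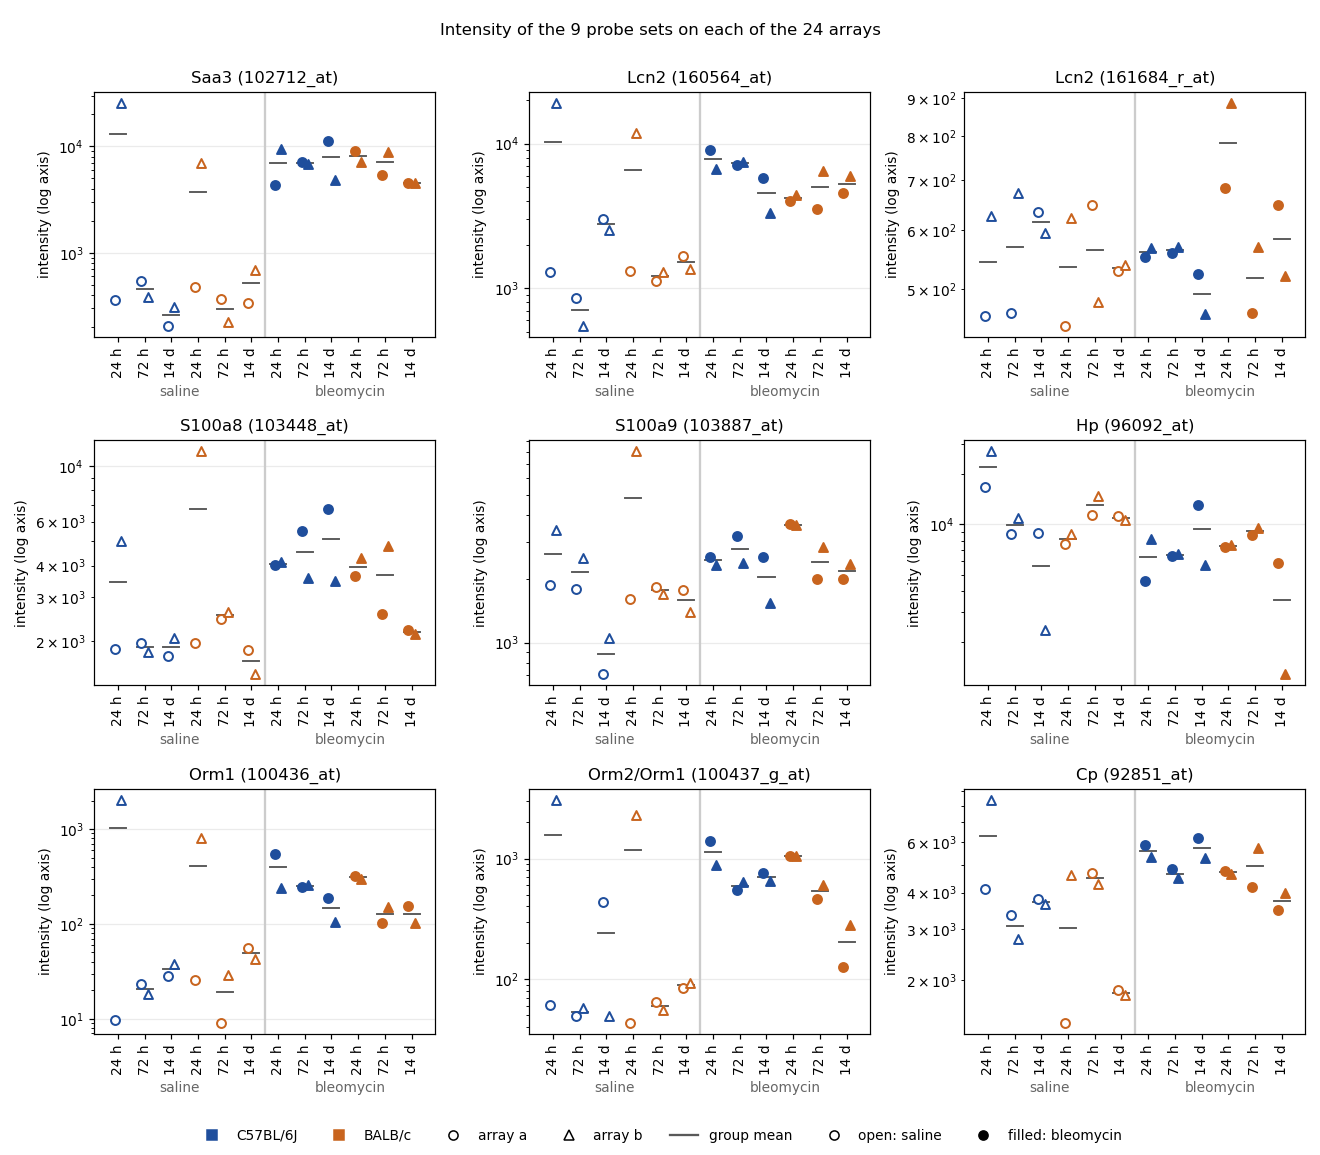
Each panel plots the intensity of 1 probe set (log axis) on the 24 arrays, by strain, treatment and time, with array a as circles, array b as triangles and the group mean as a bar. For Saa3, 10 of the 12 saline arrays lie below the lowest bleomycin array, and the b arrays of both saline 24 h groups lie among or above the bleomycin arrays.

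In C57BL/6J, Saa3 at 24 h read 4354 and 9477 after bleomycin, and 360 (a) and 25728 (b) after saline. At 72 h it read 7167 and 6910 against 541 and 381 after saline, and at 14 d 11238 and 4848 against 207 and 311. The groups did not overlap at 72 h and 14 d and overlapped at 24 h. On the log2 scale of intensity plus an offset of 92, the difference was 0.93 ± 1.23 (SE) at 24 h (limma adjusted p = 0.815), 3.70 ± 1.23 at 72 h (0.0832) and 4.43 ± 1.23 at 14 d (0.0347). Only the rise at 14 d passed the adjusted p threshold of 0.05 in this strain, and it did not pass without bleomycin 14 d a (3.83, adjusted p = 0.278), saline 14 d a (0.138) or saline 14 d b (0.112), nor without the 4 saline arrays of 72 h (0.056).

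In BALB/c, Saa3 at 24 h read 9053 and 7086 after bleomycin, and 477 (a) and 6917 (b) after saline. It read 5441 and 8804 against 372 and 224 at 72 h, and 4557 and 4510 against 341 and 691 at 14 d. Here no bleomycin array overlapped its saline group at any time, although at 24 h the lower bleomycin array and the higher saline array were close. The log2 differences were 2.02 ± 1.23 (limma adjusted p = 0.482), 4.20 ± 1.23 (0.134) and 2.99 ± 1.23 (0.115), none of which passed.

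Taken over both strains, which sets 4 bleomycin arrays against 4 saline arrays, Saa3 rose by 3.95 ± 0.87 at 72 h (limma adjusted p = 0.0159) and by 3.71 ± 0.87 at 14 d (0.0111). At 24 h the difference was 1.48 ± 0.87 (0.378). The rise at 72 h does not depend on which strain each saline array belongs to. Without those 4 arrays, and with the saline groups of the other times as control, it was 2.71 ± 0.80 (0.0375). It is fragile to single arrays all the same, since leaving out any 1 of 5 of the 8 arrays compared gave an adjusted p of 0.0541 to 0.0801. Leaving out C57BL/6J bleomycin 14 d a gave 0.0527 for the rise at 14 d. The difference between strains in the effect of bleomycin was -1.09 at 24 h, -0.49 at 72 h and 1.44 at 14 d, with limma adjusted p from 0.652 to 0.957. The sign at 24 h and 72 h depended on the saline arrays used. At 72 h it was 0.01 without the 4 saline arrays of 72 h and 0.54 with their strain labels exchanged. At 24 h it was 0.43 with saline 14 d as the control, and 2.21 when only C57BL/6J took that control. Among the bleomycin groups the mean ran from 8070 ± 1391 (SD, n = 2) in BALB/c at 24 h to 4534 ± 33.0 in BALB/c at 14 d. All other bleomycin groups lay between, and the 2 arrays of C57BL/6J at 14 d, 11238 and 4848, spanned most of that range.

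Lcn2 followed the same outline at a higher saline level. Its probe set 160564_at read 551 to 3020 on 10 saline arrays and 3296 to 9033 on the 12 bleomycin arrays. The b arrays of saline 24 h were again the exceptions, at 19139 in C57BL/6J and 11847 in BALB/c, the highest Lcn2 readings of the series. Each of them was above every bleomycin array.

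In C57BL/6J, Lcn2 read 7104 and 7465 after bleomycin at 72 h against 861 and 551 after saline. That was a rise of 3.24 ± 0.87 (limma adjusted p = 0.033). At 14 d it read 5744 and 3296 against 3020 and 2515, a difference of 0.64 ± 0.87 (0.725), and at 24 h 9033 and 6712 against 1301 (a) and 19139 (b). In BALB/c it read 4035 and 4385 at 24 h against 1323 (a) and 11847 (b), 3523 and 6468 at 72 h against 1122 and 1304, and 4558 and 5978 at 14 d against 1677 and 1352. The BALB/c groups were apart at 72 h and 14 d, and the differences of 1.90 ± 0.87 (0.446) and 1.73 ± 0.87 (0.199) did not pass.

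Over both strains Lcn2 rose by 2.57 ± 0.62 at 72 h (limma adjusted p = 0.0281). Without the saline arrays of 72 h, the value was 0.93 ± 0.57 (0.298) over both strains and 0.94 ± 0.80 (0.534) in C57BL/6J. The control then held the saline 24 h b arrays, at 19139 and 11847, so these values change 2 things at once. With their strain labels exchanged, the C57BL/6J difference at 72 h was 2.50 (0.151). Leaving out any 1 of the 4 C57BL/6J arrays compared lost the call in that strain, with differences from 2.95 to 3.52. Over both strains the call was lost without most of the single arrays compared, with differences from 2.35 to 2.78.

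The second Lcn2 probe set, 161684_r_at, did not show this pattern. It read 447 to 887 over all 24 arrays, 459 on array a and 626 on array b of C57BL/6J saline 24 h, where 160564_at went from 1301 to 19139. Its log2 differences after bleomycin lay between -0.27 and 0.49, and none passed. Across the 24 arrays the log2 values of the 2 probe sets correlated with Pearson r of 0.24. The suffix r marks a probe set for which the array's probe selection rules were relaxed. The plot of one probe set against the other shows the second one nearly level.

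**Figure D2:**
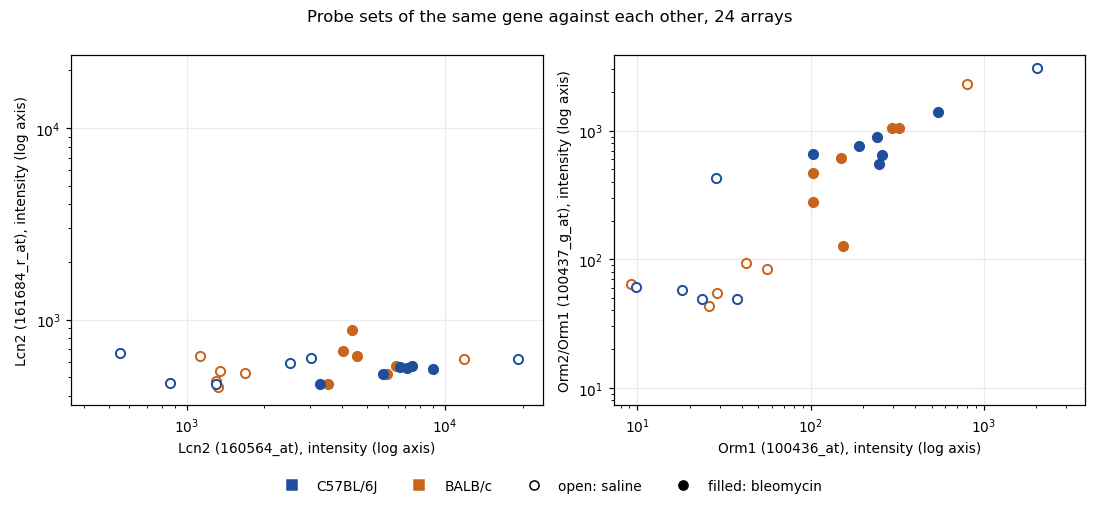
Intensities of 2 probe sets of the same gene on the 24 arrays (both axes log, equal ranges), coloured by strain, with saline open and bleomycin filled. The second Lcn2 probe set stays between 447 and 887 while the first runs from 551 to 19139, and the orosomucoid probe sets climb together.

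S100a8 and S100a9 were abundant after saline as well, and moved less. S100a8 read 1473 to 2610 on 10 saline arrays and 2138 to 6753 on the bleomycin arrays. In C57BL/6J it read 4009 and 4136 after bleomycin at 24 h, 5503 and 3555 at 72 h and 6753 and 3465 at 14 d, against 1739 to 2058 on the saline arrays other than 24 h b. That b array read 4999. In BALB/c the bleomycin arrays read 3644 and 4288 at 24 h, 2556 and 4808 at 72 h and 2204 and 2138 at 14 d, against 1473 to 2610 on saline arrays other than 24 h b, which read 11471. Part of the BALB/c bleomycin readings at 72 h and 14 d lay inside this saline range only through the saline 72 h arrays labelled BALB/c, at 2455 and 2610, whose H2-Ea ran against the label. The other BALB/c saline arrays, apart from 24 h b, read 1473 to 1954, below the lowest BALB/c bleomycin array at 2138.

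None of the S100a8 differences passed. In C57BL/6J they were 0.40 ± 0.56 at 24 h, 1.19 ± 0.56 at 72 h (limma adjusted p = 0.235) and 1.31 ± 0.56 at 14 d (0.169). In BALB/c they were -0.27, 0.46 and 0.38 with the same SE. The strain difference in these effects was 0.67 to 0.93, with adjusted p from 0.499 to 0.842. At 72 h it was 0.74 as labelled, 0.54 without the 4 saline arrays of 72 h and -0.08 with their strain labels exchanged. At 24 h it was 0.67. With saline 14 d as the control at 24 h it was -0.15, and 1.34 when only C57BL/6J took that control.

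S100a9 read 2552 and 2337 in C57BL/6J after bleomycin at 24 h, 3181 and 2382 at 72 h and 2548 and 1538 at 14 d. The matching saline arrays read 1877 (a) and 3389 (b), 1791 and 2519, and 710 and 1052. Groups were apart only at 14 d, where the difference was 1.12 ± 0.47 (limma adjusted p = 0.163). In BALB/c S100a9 read 3627 and 3589 at 24 h, 1997 and 2823 at 72 h, and 1992 and 2349 at 14 d, against 1616 (a) and 8028 (b), 1826 and 1704, and 1778 and 1396. The BALB/c differences were -0.01, 0.41 and 0.44, and none passed. The log2 values of S100a8 and S100a9 correlated with r = 0.79 over the 24 arrays and 0.66 without the b arrays of saline 24 h. Each array contributes to both genes, so shared array properties enter this value.

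Neutrophil genes were read beside these values. Of 3 defining neutrophil genes, Ngp and Ly6g lay above the filter value on 1 array each, BALB/c saline 24 h b, at 344 and 268, and Mpo on 1 array, BALB/c bleomycin 24 h a, at 243. Of the other 10 of the 13 neutrophil markers measured, Mmp8, a collagenase of neutrophil granules, was above it on 7 arrays. Those were all 4 C57BL/6J bleomycin arrays of 72 h and 14 d, at 358 to 680, BALB/c saline 24 h b, at 602, and the BALB/c bleomycin b arrays of 72 h and 14 d, at 340 and 269. Cxcr2 and Padi4 were above it on 6 arrays each, Itgam on 8, Mmp9 on 19, Elane on 22, and Camp, Ltf, Csf3r and Itgb2 on all 24. The summed intensity of the 13 markers was 4094 to 5672 in the saline groups of 72 h and 14 d, 5088 to 6455 in the saline 24 h groups and 4242 to 7852 in the bleomycin groups. Of 22 tested neutrophil granule and surface genes other than the members, limma called 0 over both strains at 24 h and 0 at 72 h, with 2 and 4 at an unadjusted p under 0.05. At 14 d 5 of 22 rose, against 12.1% of all tested probe sets called, and 14 of the 22 differences were positive. Among the 5 were Itgb2, an integrin of leukocytes, by 1.003 ± 0.153, the granule protein Ltf by 1.02 ± 0.27 and the oxidase subunit Ncf4 by 0.88 ± 0.23. At 14 d Ltf read 1982 and 3254 after bleomycin in BALB/c against 529 and 967 after saline. In C57BL/6J it read 1099 and 711 against 754 and 607. In bulk lung RNA more cells of a type and more RNA per cell cannot be told apart, and the part of neutrophils in the S100a8 and S100a9 values was not tested.

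Orm1 was dim, above the filter value on 8 of 24 arrays. Its own probe set read 9.13 to 55.8 on 10 saline arrays and 103 to 548 on the 12 bleomycin arrays, with no overlap. The b arrays of saline 24 h read 2043 in C57BL/6J and 800 in BALB/c, beside a arrays at 9.80 and 25.8. In C57BL/6J the bleomycin arrays read 548 and 241 at 24 h, 248 and 257 at 72 h, and 190 and 104 at 14 d. In BALB/c they read 324 and 296, 103 and 151, and 154 and 103. The C57BL/6J differences, which an offset of 92 keeps small at this level, were -0.01 ± 0.93, 1.61 ± 0.93 and 0.91 ± 0.93, and none passed.

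The probe set shared by Orm2 and Orm1, 100437_g_at, was brighter and cannot separate the 2 genes. It read 43.5 to 93.2 on 9 saline arrays, 432 on C57BL/6J saline 14 d a, and 2293 and 3082 on the saline 24 h b arrays, against 126 to 1388 after bleomycin. Its differences at 72 h were 2.24 ± 1.09 in C57BL/6J (limma adjusted p = 0.259) and 2.04 ± 1.09 in BALB/c (0.544). The log2 values of the shared probe set and that of Orm1 correlated with r = 0.90 over the 24 arrays and 0.88 without the saline 24 h b arrays. They disagreed on C57BL/6J saline 14 d a, where the shared one was high and Orm1 read 28.4. In BALB/c bleomycin 14 d they moved opposite ways. There the shared one read 126 (a) and 280 (b), and Orm1 read 154 and 103. Means after bleomycin at 14 d were 147 in C57BL/6J and 128 in BALB/c for Orm1, and 708 and 203 for the shared one. The summed intensity of the 6 hepatocyte markers on C57BL/6J saline 14 d a was 2546, against 262 to 1497 on the other 23 arrays. Its part in the high shared reading there was not tested.

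Cp was bright in every group, 1423 to 8389. In C57BL/6J it read 5854 and 5305 after bleomycin at 24 h against 4128 (a) and 8389 (b), 4829 and 4490 at 72 h against 3350 and 2776, and 6183 and 5270 at 14 d against 3805 and 3642. In BALB/c it read 4743 and 4653 at 24 h against 1423 (a) and 4594 (b), 4179 and 5721 at 72 h against 4668 and 4291, and 3491 and 3999 at 14 d against 1839 and 1769. The groups were apart at 14 d in both strains and overlapped at 72 h in BALB/c as labelled, where the difference was 0.13. The saline pair labelled C57BL/6J, 3350 and 2776, lay below both BALB/c bleomycin arrays of 72 h. The pair labelled BALB/c, 4668 and 4291, overlapped the C57BL/6J bleomycin arrays of 72 h, 4829 and 4490. Without the 4 saline arrays of 72 h the BALB/c difference was 1.15 ± 0.33 (limma adjusted p = 0.0514). The C57BL/6J difference at 72 h then went from 0.60 to -0.01 ± 0.33 (0.99). Over both strains Cp rose at 14 d by 0.81 ± 0.25 (limma adjusted p = 0.0459). Without the 4 saline arrays of 72 h, which enter this comparison only through the shared spread, the adjusted p was 0.0644 at the same difference. The call was also lost without most of the single arrays compared, where the difference ran from 0.75 to 0.86. Leaving out 1 of several arrays of 24 h or 72 h, which enter only through the spread, lost it as well.

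Among saline arrays, Cp was higher in C57BL/6J than in BALB/c by 1.01 at 14 d (limma adjusted p = 0.067) and by 1.17 at 24 h (0.105). At 72 h, as labelled, the difference was -0.54 (0.71). Exchanging the labels of those 4 arrays, whose H2-Ea ran against them, must reverse the sign for any probe set, so the exchange tests nothing here. No other saline difference between strains passed among the 9 probe sets either, against 2.5% of all probe sets tested at 24 h, 1.22% at 72 h and 14.8% at 14 d. Of the 9, 2, 0 and 2 had an unadjusted p under 0.05 at these times.

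Hp stood apart from the other 6 genes. In C57BL/6J it read 4576 and 8179 after bleomycin at 24 h, 6496 and 6688 at 72 h and 13102 and 5719 at 14 d. The saline arrays read 16648 and 27217, 8769 and 10958, and 8898 and 2329. In BALB/c it read 7367 and 7573 at 24 h, 8626 and 9507 at 72 h, and 5840 and 1281 at 14 d, against 7630 and 8778, 11351 and 14730, and 11186 and 10572. In 5 of the 6 pairs of groups the mean was lower after bleomycin, the exception being C57BL/6J at 14 d.

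Hp fell by 1.94 ± 0.58 in BALB/c at 14 d (limma adjusted p = 0.0344). In C57BL/6J at 14 d the difference was 0.91 ± 0.58 (0.387), so the effects differed between strains by 2.85 ± 0.81 (0.0417). Without BALB/c bleomycin 14 d b, the array at 1281, the BALB/c difference was -0.89 (0.444) and the strain difference 1.80 (0.196). Without either BALB/c saline 14 d array the BALB/c value was -1.90 (0.155) or -1.98 (0.132).

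That array also had the dimmest brightest signal of the series, 6888. Over the 24 arrays Hp followed the highest intensity on the array, with a Spearman rank correlation of 0.96, and of 0.95 with the spiked-in control CreX 3. Pearson r with the log2 array maximum was 0.77, and 0.91 over the 22 arrays whose titles do not end in s1. For Saa3 the same r was -0.09, for the first Lcn2 probe set -0.07 and for Cp 0.24. The 14 d arrays with low Hp, BALB/c bleomycin b and C57BL/6J saline b, had maxima of 6888 and 9682, the lowest of the 24, and the part of array brightness in the Hp differences was not tested.

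**Figure D3:**
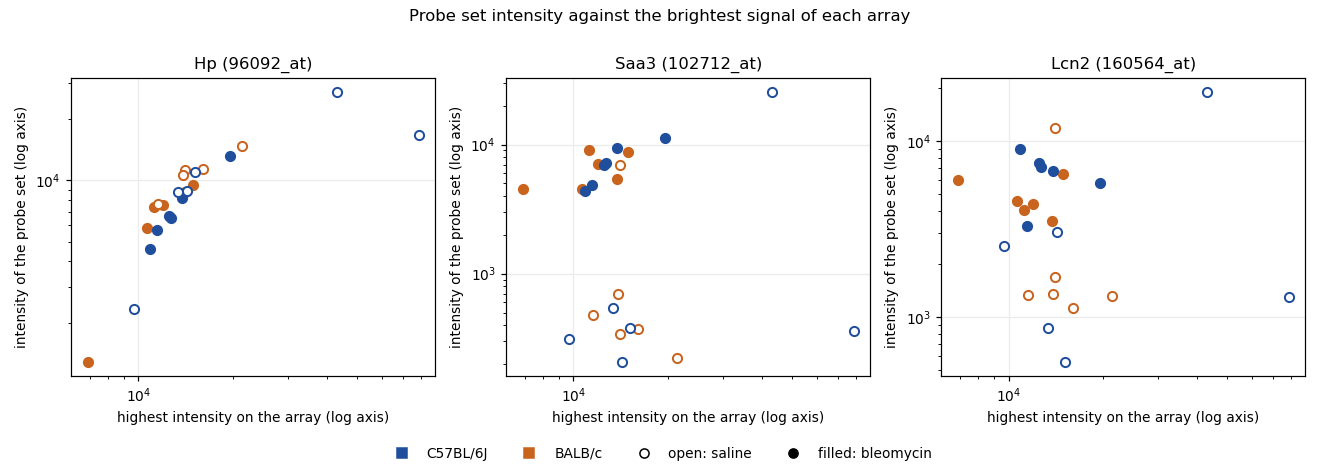
Intensity of Hp, Saa3 and Lcn2 (log axis) against the highest intensity on the same array (log axis), 1 point per array, coloured by strain, with saline open and bleomycin filled. Hp climbs with the array maximum, with a Spearman rank correlation of 0.96, while Saa3 and Lcn2 spread at any maximum.

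Counted by comparison, 0 of the 9 probe sets passed at 24 h in C57BL/6J, 1 at 72 h (Lcn2) and 1 at 14 d (Saa3), where 2.23%, 6.61% and 7.43% of all tested probe sets passed. At 24 h 1 of the 9 had an unadjusted p under 0.05. In BALB/c 0 passed at 24 h and 72 h, with 2 at an unadjusted p under 0.05 each time, and 1 at 14 d (Hp, lower), against 0.218%, 1.32% and 13.3%. Over both strains 0, 2 and 2 passed, against 3.04%, 3.21% and 12.1%, with 1 at an unadjusted p under 0.05 at 24 h. In the strain difference in effect 0, 0 and 1 passed, against 0.023%, 3.08% and 7.43%, and at 24 h and 72 h 0 had an unadjusted p under 0.05. The median log2 difference over the 9 probe sets was 0.83 at 72 h and 0.81 at 14 d over both strains, beside -0.02 and -0.03 over all tested probe sets.

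Without the 4 saline arrays of 72 h, the bleomycin difference of Saa3 over both strains passed at 72 h, and that of no other member did. The share of all probe sets passing in that fit was not set beside it. In C57BL/6J the differences at 72 h were then 2.71 ± 1.13 for Saa3 (limma adjusted p = 0.168), 0.85 ± 0.51 for S100a8 (0.357), 0.85 ± 0.43 for S100a9 (0.264), -0.58 ± 0.53 for Hp (0.563), 0.51 ± 0.86 for Orm1 (0.777), 0.66 ± 1.01 for the shared Orm2 and Orm1 probe set (0.757) and -0.01 ± 0.33 for Cp (0.99). In BALB/c they were 2.70 ± 1.13 for Saa3 (0.164), 0.93 ± 0.80 for Lcn2 (0.531), 0.31 ± 0.51 for S100a8 (0.774), -0.01 ± 0.43 for S100a9 (0.992), -0.06 ± 0.53 for Hp (0.966), 0.03 ± 0.86 for Orm1 (0.993) and 0.96 ± 1.01 for the shared probe set (0.615). The second Lcn2 probe set differed by -0.02 and -0.04.

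The b arrays of saline 24 h set both the 24 h values and much of the spread. Against its a array, the C57BL/6J b array was higher by 5.84 in Saa3, 4.39 in Orm1, 3.79 in Lcn2, 1.39 in S100a8 and 1.01 in Cp on the log2 scale. The BALB/c b array was higher by 3.62 in Saa3, 2.92 in Orm1, 3.08 in Lcn2, 2.50 in S100a8, 2.25 in S100a9 and 1.63 in Cp. In the other 10 groups the largest gap between a and b was 1.20 for Saa3, 0.86 for Lcn2, 0.94 for S100a8 and 0.44 for Cp. For the shared Orm2 and Orm1 probe set it was 1.90, against 4.38 and 4.14 in the saline 24 h groups. Hp did not share the pattern, with 2.11 in BALB/c bleomycin 14 d against 0.71 and 0.20 in the saline 24 h groups. Neither did the second Lcn2 probe set, with 0.46 against 0.38 and 0.41. The map of these gaps shows the pattern in the saline 24 h columns of both strains.

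**Figure D4:**
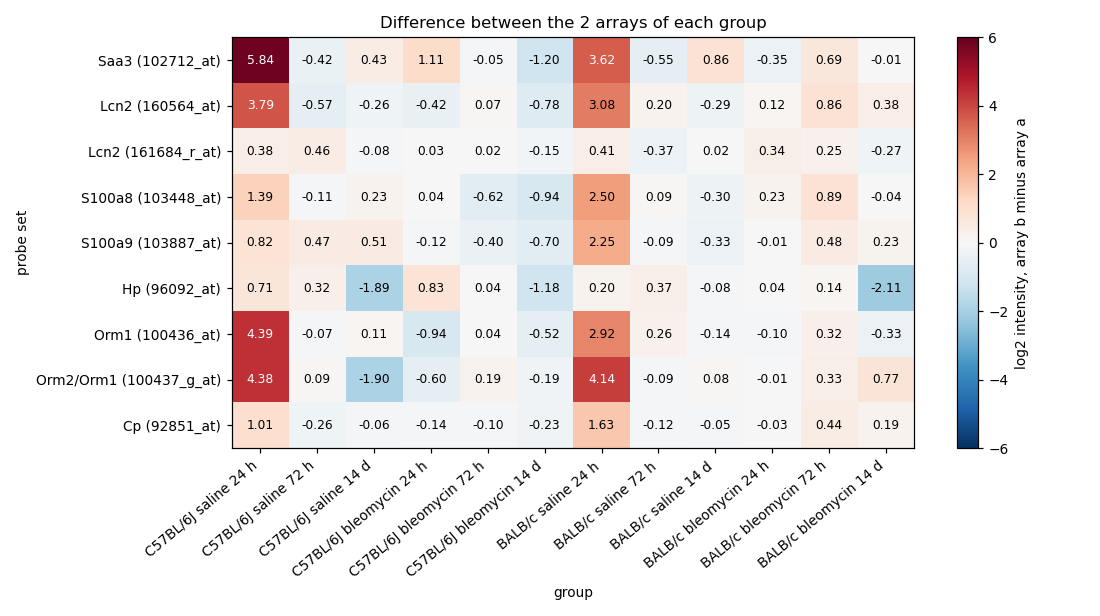
Log2 intensity of array b minus array a for each probe set (rows) in each of the 12 groups (columns), with red for higher on b. The saline 24 h groups hold gaps of 5.84 and 3.62 for Saa3, against at most 1.20 in size in any other group.

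Both b arrays were high in other genes too. Of the 8710 tested probe sets, 190 were over 1 (log2) higher on b than on a in C57BL/6J and 155 in BALB/c, and 48 in both, 25.3% and 31.0% of these lists. The median over all tested probe sets was -0.02 and -0.03. The members held 6 of 9 in both. Among listed genes over 1 on both b arrays, Il1b, an inflammatory cytokine, read 262 and 2810 (a and b) in C57BL/6J and 477 and 2174 in BALB/c. Il1rn, its receptor antagonist, read 254 and 4081, and 324 and 1613. Cd14, a lipopolysaccharide receptor, read 2045 and 7513, and 1578 and 8563. The gap held for 6 of 19 other acute phase genes in C57BL/6J and 8 in BALB/c, 7 of 22 neutrophil genes in each, and 0 of 8 other S100 genes and 0 of 7 hepatocyte genes in either. Of the 6 hepatocyte markers, Apoa1 and Ahsg were above the filter value on 0 arrays, Apoa2 on 1, Fabp1 on 3, Ttr on 4 and Alb on 7, Alb reaching 1737. What set these b arrays apart was not tested.

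With both b arrays left out, a choice made after their values were seen, the 24 h saline groups were 1 array each and were assumed to vary like the others. Of the 9 member probe sets, 6 were over 1 (log2) higher on both b arrays, against 48 of the 8710 tested. Leaving these arrays out by itself raises the 24 h differences of such probe sets and lowers their SE. All tested probe sets were not selected in this way. The counts here show how calls shift and cannot test a rise at 24 h. Then 4 of the 9 probe sets passed in C57BL/6J at 24 h and 5 in BALB/c, against 3.33% and 0.976% of all tested probe sets. Saa3 was higher by 3.85 ± 0.49 in C57BL/6J and 3.83 ± 0.49 in BALB/c. Lcn2 differed by 2.50 ± 0.35 and 1.60 ± 0.35, Orm1 by 2.18 ± 0.35 and 1.77 ± 0.35, and Cp by 0.42 ± 0.20 and 1.66 ± 0.20.

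The differences at 72 h and 14 d do not use these b arrays and stayed as they were, while their SE fell, for Saa3 from 1.23 to 0.40. That fall also follows from leaving out arrays on which most members stood apart. The counts in this fit are therefore not a result about the members. Then 6 of 9 passed in C57BL/6J at 72 h and 5 at 14 d, against 7.66% and 8.65%, and 3 and 4 in BALB/c, against 1.49% and 13.8%. Over both strains 6, 5 and 7 passed at 24 h, 72 h and 14 d, against 3.64%, 4.16% and 13%. Within a strain S100a8 and S100a9 were then called only in C57BL/6J, S100a8 at 72 h and both at 14 d, but this depended on the control. With all 4 saline 24 h arrays left out and saline 14 d as the control at 24 h, both passed in BALB/c at 24 h. The differences were 1.22 (limma adjusted p = 0.0315) for S100a8 and 1.15 (0.0178) for S100a9. In that fit their strain differences in effect did not pass at 24 h, 72 h or 14 d. The S100a8 difference at 72 h in C57BL/6J was 0.85 (0.357) without the 4 saline arrays of 72 h. The plot of fitted differences sets the fit to all 24 arrays beside the fit without both b arrays.

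**Figure D5:**
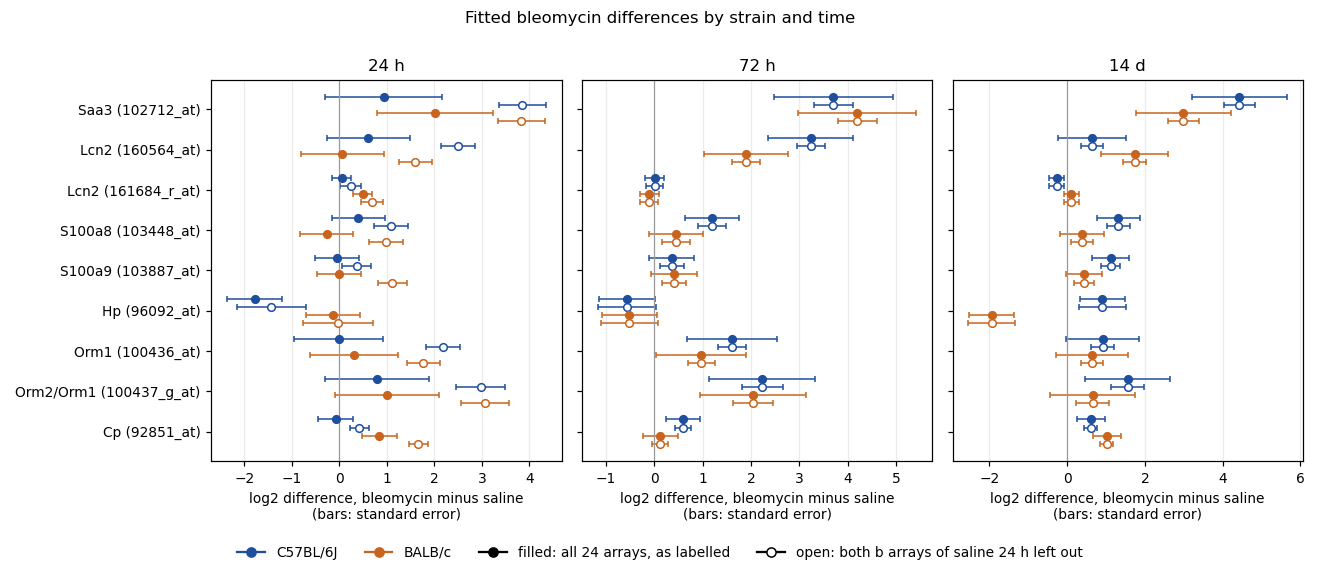
Log2 difference, bleomycin minus saline, with its standard error for each probe set, strain and time, filled for all 24 arrays and open with both b arrays of saline 24 h left out. For Saa3 the 24 h differences move from 0.93 and 2.02 to 3.85 and 3.83, and at 72 h and 14 d only the bars shorten.

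Other genes of the response were counted over both strains. For these lists and those below, 3.04%, 3.21% and 12.1% of all tested probe sets passed at 24 h, 72 h and 14 d. Counts near these shares, such as 1 of 24 at 24 h or 4 of 24 at 14 d, are not a result about the list. Of 19 other acute phase genes tested, 2 rose at 72 h and 5 at 14 d, none fell, and limma called 0 at 24 h, with 2 at an unadjusted p under 0.05. At 72 h these were Lrg1, a plasma glycoprotein, by 1.19 ± 0.30 and the metallothionein Mt2 by 1.52 ± 0.40. At 14 d they included Mt2 by 1.78 ± 0.40, the protease inhibitor Serpina3n by 1.51 ± 0.34 and Mt1 by 1.51 ± 0.37. Of 24 genes that induce or transmit the response, 1 rose at 24 h, 5 at 72 h and 4 at 14 d. Bcl3, a nuclear partner of NF-kappaB, rose by 1.38 ± 0.23 at 24 h, 1.35 ± 0.23 at 72 h and 1.21 ± 0.23 at 14 d. Socs3, a feedback inhibitor of STAT3 signalling, rose by 1.12 ± 0.24 at 72 h and 1.27 ± 0.24 at 14 d.

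Of 8 other S100 genes, S100a4 rose by 1.17 ± 0.21 at 72 h and 1.75 ± 0.21 at 14 d and S100a10 by 0.64 ± 0.13 and 0.52 ± 0.13, and S100a14 fell at 14 d by 0.52 ± 0.13. Of 9 tested receptors and partners of the members, Ager, the receptor for advanced glycation end products that binds S100 proteins and is abundant in alveolar type 1 cells, fell by 2.81 ± 0.59 at 24 h. Ager read 30434 and 23389 on the C57BL/6J saline 24 h arrays, whose titles end in s1, against 2248 and 5867 in BALB/c saline 24 h, and 680 to 2119 on the bleomycin arrays of 24 h. In C57BL/6J it fell by 4.08 ± 0.84 (limma adjusted p = 0.0163), and in BALB/c it was not called at 24 h. The vitamin D-regulated calcium binder S100g fell at 24 h by 0.74 ± 0.15. Scarb1, a lipoprotein receptor, rose by 0.53 ± 0.13 at 72 h and 0.49 ± 0.13 at 14 d, and the scavenger receptor Cd36 fell by 0.93 ± 0.18 at 14 d. Of 17 macrophage genes 3 rose at 72 h and 12 at 14 d, led by C1qa, C1qb and C1qc, the complement subunits, at 1.75 ± 0.19, 2.16 ± 0.23 and 1.66 ± 0.19 at 14 d. Of 14 iron and haem genes 3 rose at 14 d, Ltf, Hmox2 and Slc11a1, and Alas2 fell at 72 h. The summed intensity of the 8 macrophage markers was 5299 to 14530 on saline arrays and 5468 to 28830 on bleomycin arrays, and the part of macrophages in the Saa3 values was not tested. Of 11 airway and alveolar epithelial genes 4 fell at 24 h, led by Cyp2f2, a club cell enzyme, by 1.17 ± 0.21, and at 72 h 1 rose and 1 fell. At 24 h 5 of the 11 fell in C57BL/6J, and limma called 0 in BALB/c, with 3 at an unadjusted p under 0.05. The shares of all tested probe sets called there were 2.23% and 0.218%. Between the saline groups of 24 h, 4 of the 11 were higher in C57BL/6J, where 2.5% of all tested probe sets differed. The summed intensity of the lung epithelial markers was 124935 and 190390 on the C57BL/6J saline 24 h arrays and 575 to 59295 on the other 22, and its part in the 24 h calls was not tested. Of 15 heart and skeletal muscle genes 1 fell at 72 h and 7 at 14 d, and of 7 hepatocyte genes limma called 0 at any time, with 0, 2 and 1 at an unadjusted p under 0.05.

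For each member, the genes most like it were sought by Pearson r of log2 values over the 24 arrays, among 6454 genes with 1 probe set each. Saa3 was most like Mt2 (0.86), the monocyte chemokine Ccl2 (0.86) and Socs3 (0.84). Ccl2 read 281 to 2484 on the bleomycin arrays and 11.2 to 113 on the saline arrays, except on the saline 24 h b arrays at 681 and 692. Lcn2 was most like Cd14 (0.88), Lrg1 (0.87) and Ccl2 (0.86). S100a8 was most like the decoy receptor Il1r2 (0.94), Cd14 (0.85) and Mt1 (0.84), and S100a9 like Saa2 (0.88), Il1b (0.80) and Il1r2 (0.78). Orm1 was most like the neutrophil chemokine Cxcl2 (0.92), Il1rn (0.90) and Il1b (0.89). Without the saline 24 h b arrays some of these values fell and others rose. The r of Orm1 with Cxcl2 was then 0.83 and that of S100a9 with Il1r2 was 0.66. That of Saa3 with Ccl2 was 0.87 and that of Lcn2 with Ccl2 was 0.92.

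Cp was most like Clu (0.84), Mt2 (0.81) and Nfkbia (0.79). Hp had other company, App (0.96), Cst3 (0.95) and Gsn (0.95), and those 3 also followed the array maximum, with Spearman rank correlations of 0.93 to 0.99. Between members, Saa3 and Lcn2 correlated with r = 0.86 and Lcn2 and Orm1 with 0.88, while Hp with Saa3 gave -0.05. The arrays are shared by all these genes, so their common properties enter every r, and no test is attached.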

How the data were processed

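Lung RNA was measured on 24 Affymetrix murine arrays, 1 sample each, and per the labels 12 groups hold 2 arrays each. Each deposited value is an intensity on a linear scale for 1 probe set on 1 array. The algorithm that summarised the probes and the scaling are not given in the sources used here. After trimming 2% of values at either end, array means were all 799.9, so no further normalization was applied. The table held 12488 probe sets, 66 of them controls, which were not tested. Names came from the platform annotation, updated through a RefSeq gene table. Of the 12422 others 10833 had 1 gene name, 396 several and 1193 none.

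The computed values were log2 of intensity plus an offset of 92, the median lower quartile. Probe sets above 225.7, the 40th percentile, on at least 2 arrays were tested. The limma package (3.58.1, R 4.3.3) estimated 12 group means, leaving 12 residual degrees of freedom, with a variance trend and two-sided tests. Benjamini-Hochberg adjustment ran over all 8710 tested probe sets, separately for each of 15 comparisons, and a call is an adjusted p under 0.05. The number of arrays limits the precision. The fit was tested on simulated data. All member probe sets were described. From the other lists up to 3 called genes with the smallest p were named, and the genes listed for the saline 24 h arrays and H2-Ea were chosen after their values were seen. The members and lists were chosen with earlier results of these data known. Promoter windows came from RefSeq (GRCm38.p6).

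The array letters were not used to pair groups. Deviations of same-lettered arrays from their group means correlated between bleomycin and saline with r of -0.07 to 0.31 over the 6 pairs. Links by letter between the strains were not computed. In both saline 24 h groups the same 48 probe sets were over 1 (log2) higher on b than on a. Alternatives were quantile normalization, offsets of 46 and 276, no filter, a filter at the 60th percentile, no variance trend, the letter as a block, other control arrays, the 4 saline 72 h arrays left out or exchanged, and each array left out in turn. Of these, 2 that leave out saline 24 h arrays were added after seeing the data.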

Additional observations from a re-analysis of the deposited data

Results flagged for a closer look

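The difference between strains in the effect of bleomycin on Hp at 14 d was 2.85 ± 0.81 on the log2 scale (C57BL/6J minus BALB/c, limma interaction contrast, adjusted p = 0.0417), and it stands out because the interaction itself passed. It rested on single arrays: Hp read 13102 and 5719 in C57BL/6J and 5840 and 1281 in BALB/c after bleomycin, and 8898 and 2329 against 11186 and 10572 after saline. The highest intensities on these arrays were, in the same order, 19576 and 11477, 10674 and 6888, 14338 and 9682, and 14092 and 13856. Hp followed that maximum over the 24 arrays, with a Spearman rank correlation of 0.96. The part of array brightness in this difference was not tested. Over alternatives other than leaving out 1 array the difference lay between 1.70 and 2.88, with adjusted p from 0.036 to 0.121. Leaving out single arrays gave differences from 1.80 (0.196, without BALB/c bleomycin 14 d b) to 3.80 (0.0159, without C57BL/6J saline 14 d a).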

How the results depend on the processing

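The counts of member probe sets called depended most on which saline arrays of 24 h were used. With both b arrays left out they were 4, 6 and 5 in C57BL/6J at 24 h, 72 h and 14 d, 5, 3 and 4 in BALB/c and 6, 5 and 7 over both strains, 0 for the strain difference in effect at 14 d, and 1 and 2 for the saline strain difference at 24 h and 14 d. With all 4 saline 24 h arrays left out and saline 14 d as the control at 24 h, they were 7, 6 and 5, then 7, 3 and 4, then 7, 5 and 7, with 0 for the strain difference in effect and 2 for the saline difference at 14 d. Both fits were chosen after seeing the data. The share of all probe sets passing in the same fit is not set beside the member counts here. These counts therefore show how calls shift with the setting and are not a result about the members. With that control for C57BL/6J alone, 1 passed in C57BL/6J and over both strains at 24 h, 2 in C57BL/6J and 1 in BALB/c at 72 h, and 3 in BALB/c and 1 for the saline difference at 14 d. Differences that changed sign and passed in 1 of the fits compared were at 24 h: Orm1 in C57BL/6J, 2.18 without both b arrays, and, against saline 14 d, S100a9 1.40, Orm1 1.88 and Cp 0.57 in C57BL/6J, S100a8 1.22 and S100a9 1.15 in BALB/c, and S100a9 1.28 over both strains. Over the settings other than leaving out 1 array, 36 further sign changes of bleomycin differences and 42 of differences between strains passed in neither fit. Among them were Hp in C57BL/6J at 24 h, from -1.78 to 0.41 against saline 14 d, and Cp in C57BL/6J at 72 h, from 0.60 to -0.01 without the 4 saline arrays of 72 h. With all saline arrays of a strain as control, 0 passed in C57BL/6J at 72 h, 2 and 1 over both strains at 24 h and 72 h, and 0 for the strain difference in effect at 14 d. Without the 4 saline arrays of 72 h, 0 passed in C57BL/6J at 72 h and 14 d, 1 over both strains at each of these times and 0 for the strain difference in effect at 14 d; with their labels exchanged, 0 passed in C57BL/6J at 72 h. With no filter, more probe sets were tested, and 0 passed in C57BL/6J at 72 h and 14 d, 0 in BALB/c at 14 d, 1 over both strains and 0 for the strain difference in effect at 14 d. Quantile normalization gave 2 in C57BL/6J at 72 h, 3 in BALB/c and 0 for the strain difference in effect at 14 d, and no variance trend gave 1 over both strains at 14 d. Leaving out each of the 24 arrays in turn gave 0 to 1, 0 to 2 and 0 to 3 in C57BL/6J at the 3 times, 0 to 1, 0 to 1 and 0 to 3 in BALB/c, 0 to 1, 0 to 2 and 0 to 4 over both strains, and 0 to 1 for the strain difference in effect at 14 d and the saline differences at 24 h and 14 d; a lone array in a group was assumed to vary like the others. Other causes of these changes were not tested. The replicate block, with the letter as the block, changed no member count and gave 183 calls over all probe sets in C57BL/6J at 24 h against 194 without it. Counts over all probe sets ranged over these settings from 121 to 531 in C57BL/6J, 10 to 325 in BALB/c and 227 to 858 over both strains at 24 h, 226 to 667, 7 to 526 and 221 to 1073 at 72 h, and 551 to 1451, 989 to 1267 and 892 to 1835 at 14 d. They ranged from 2 to 65 and from 0 to 296 for the strain difference in effect at 24 h and 72 h, and from 108 to 226 for the saline difference at 24 h. Signal over background limited Orm1 most, which was above the filter value on 8 arrays.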
